A study of Mus musculus with 12 samples.

Results

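Regions of brown adipose tissue (BAT) that carried H3K9me2 without H3K9me3, H3K9me3 without H3K9me2, or both marks were described from 4 lists of chromatin immunoprecipitation and sequencing (ChIP-seq) peaks, 1 for each mark in mice on a high-fat diet (HFD) and 1 for each mark in mice on a standard chow diet (SCD). Peaks of the 4 lists on the 19 autosomes that overlapped by at least 1 bp were merged into 74877 regions of the mm9 genome. A region was H3K9me2-specific when both diets had an H3K9me2 peak in it and neither had an H3K9me3 peak (1694 regions, 2.26% of all), H3K9me3-specific in the opposite case (2848 regions, 3.80%), and dual-mark when all 4 lists had a peak (11610 regions, 15.5%). The other 58725 regions (78.4%) fell in none of these classes and were called mixed.

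The mice were wild-type C57BL/6J animals that started HFD (60% of calories from fat) or SCD at 6 weeks of age and were dissected after 12 weeks, and chromatin was fixed with 1% formaldehyde for 8 min. The series had 12 libraries, of which 8 have a peak list (the 4 of BAT and the same 4 of white adipose tissue, WAT) and 4 are inputs without antibody that were not used here. Each mark, diet and tissue had 1 library, and the number of animals behind a library, their sex and whether they were pooled are not given in the sources used here. There were thus no replicates and no p-value between marks or diets, since the smallest two-sided exact permutation p of 2 libraries against 2 is 0.333. Intervals below are 95% binomial intervals and cover counting error only. In the study's methods, the H3K9me2 antibody is listed as one to trimethyl K9 and the H3K9me3 antibody as one to dimethyl K9. Marks are therefore called by the names in the library titles.

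H3K9me2 and H3K9me3 are histone H3 molecules with dimethylated and trimethylated lysine 9, and both are commonly found on repressed chromatin. H3K9me2 is placed mainly by the methyltransferase pair G9a (Ehmt2) and Glp (Ehmt1) over silent genes and broad gene-poor domains, and H3K9me3 by Suv39h1, Suv39h2 and Setdb1, the last recruited with Trim28 by zinc finger proteins to transposable elements. Both marks are bound by the heterochromatin proteins HP1 (Cbx1, Cbx3, Cbx5). Demethylases of H3K9 include the Kdm3 and Kdm4 families. In brown fat, which burns lipid for heat, Ehmt1 is known to cooperate with Prdm16 in brown fat identity.

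Because the classes differed in sequence, stretches of 240 bases from single regions are shown, each read from the plus strand of mm9 near the centre of its peaks, with every CpG (C followed by G) in capitals. They were chosen after the values were seen, to show regions at promoters in every class and distal ones in the H3K9me2-specific and dual-mark classes. The H3K9me2-specific ones are chr10:88146964-88147203 in an intron of Spic, chr15:78402862-78403101 just inside Rac2 and chr15:35838679-35838918 in an intron of Vps13b, which is the highest-scoring H3K9me2-specific tandem repeat in an intron or between genes. The H3K9me3-specific ones are chr3:145587394-145587633 just inside Bcl10 and chr6:115310977-115311216 just before the first start site of Pparg. The dual-mark ones are chr4:154009560-154009799 in an intron of Prdm16 close to its start and chr3:157104623-157104862, an intergenic tandem repeat.
Spic, H3K9me2-specific: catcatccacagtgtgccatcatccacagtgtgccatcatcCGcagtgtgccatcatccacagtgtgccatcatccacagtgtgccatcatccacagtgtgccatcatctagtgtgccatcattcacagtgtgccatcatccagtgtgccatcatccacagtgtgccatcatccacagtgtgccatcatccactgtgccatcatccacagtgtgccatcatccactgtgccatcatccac
Rac2, H3K9me2-specific: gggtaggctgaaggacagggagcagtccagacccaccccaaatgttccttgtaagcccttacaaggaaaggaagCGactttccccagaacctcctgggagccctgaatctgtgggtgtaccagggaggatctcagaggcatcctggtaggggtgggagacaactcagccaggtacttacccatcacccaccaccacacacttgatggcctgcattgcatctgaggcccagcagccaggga
H3K9me2-specific tandem repeat: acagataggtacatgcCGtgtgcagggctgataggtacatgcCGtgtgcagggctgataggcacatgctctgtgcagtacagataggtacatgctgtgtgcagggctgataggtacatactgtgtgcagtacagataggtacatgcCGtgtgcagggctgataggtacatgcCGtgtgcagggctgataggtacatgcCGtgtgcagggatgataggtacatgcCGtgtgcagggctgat
Bcl10, H3K9me3-specific: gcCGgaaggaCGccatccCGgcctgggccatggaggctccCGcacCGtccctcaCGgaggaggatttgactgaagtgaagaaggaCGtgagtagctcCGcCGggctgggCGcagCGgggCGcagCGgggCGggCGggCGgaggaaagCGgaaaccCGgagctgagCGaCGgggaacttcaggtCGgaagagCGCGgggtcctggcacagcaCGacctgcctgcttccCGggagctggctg
Pparg, H3K9me3-specific: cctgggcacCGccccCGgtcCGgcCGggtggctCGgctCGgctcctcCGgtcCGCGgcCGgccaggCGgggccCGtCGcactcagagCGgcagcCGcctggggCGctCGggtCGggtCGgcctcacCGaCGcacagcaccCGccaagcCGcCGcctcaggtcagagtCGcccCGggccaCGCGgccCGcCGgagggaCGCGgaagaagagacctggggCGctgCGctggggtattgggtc
Prdm16, dual-mark: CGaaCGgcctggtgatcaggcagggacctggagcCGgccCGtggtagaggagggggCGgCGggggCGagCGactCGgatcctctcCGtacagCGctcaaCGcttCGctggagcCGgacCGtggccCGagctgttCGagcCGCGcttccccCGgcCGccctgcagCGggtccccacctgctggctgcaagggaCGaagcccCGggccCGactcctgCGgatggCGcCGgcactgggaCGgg
dual-mark tandem repeat: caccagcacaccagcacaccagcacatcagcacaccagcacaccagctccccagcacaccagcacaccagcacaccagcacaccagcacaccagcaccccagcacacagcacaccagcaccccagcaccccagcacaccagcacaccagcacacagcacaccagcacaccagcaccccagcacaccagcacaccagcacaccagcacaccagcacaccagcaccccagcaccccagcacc

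The Spic and Rac2 stretches held 1 CpG each. Those of Bcl10, Pparg and Prdm16 held 25, 34 and 29. The tandem repeats held 6 CpGs in the H3K9me2-specific and 0 in the dual-mark region. The values for all regions of each class follow.

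Peaks of the 4 lists differed in number, with 42401 (HFD) and 23626 (SCD) H3K9me2 peaks and 50303 (HFD) and 25126 (SCD) H3K9me3 peaks on autosomes. Each peak has a score that the authors deposited without a unit. Its lowest value of 50 in these lists fits a p-value of 1e-05 written as its negative log10 times 10, and the score was taken as that. It is not scaled between libraries. The lists hold no read depth, so the absence of a peak means only that none was detected in that library. Of all regions, 42375 (56.6%) had a peak in 1 list alone, most of them in the HFD lists, with 17331 regions of HFD H3K9me2 alone and 19651 of HFD H3K9me3 alone against 2845 and 2548 of the SCD lists.

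**Figure D1:**
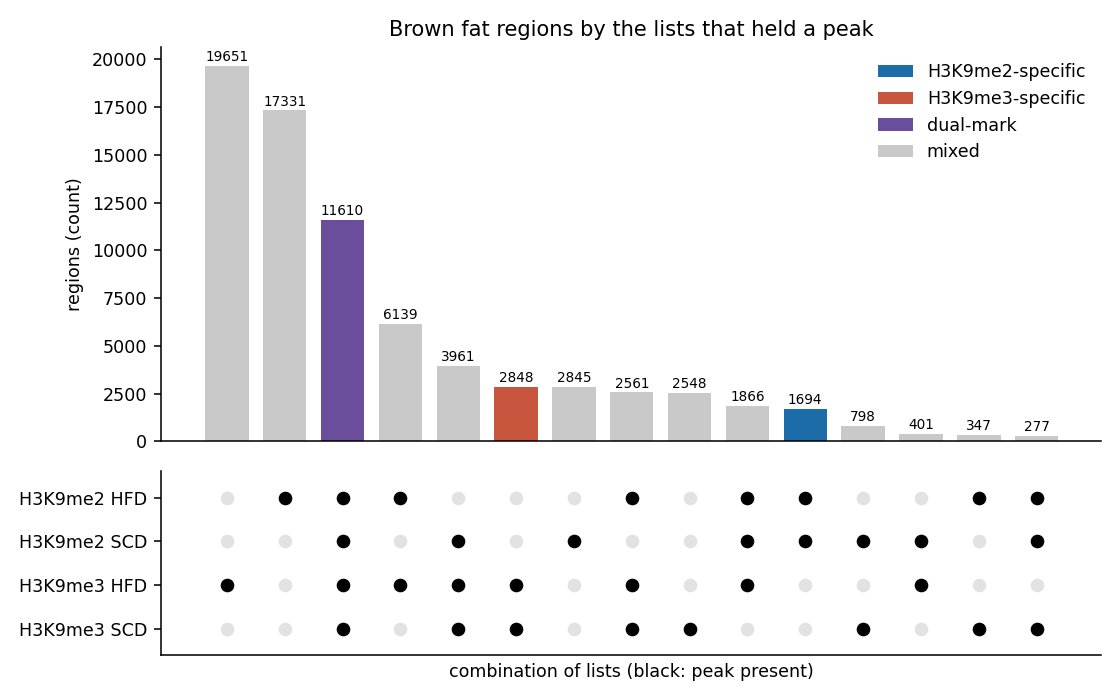
Number of brown fat regions (vertical axis, count) for each combination of the 4 lists, with black dots marking the lists that held a peak. The dual-mark combination (11610 regions) exceeded both mark-specific ones (1694 and 2848), and the highest bars were regions found in 1 HFD list alone (19651 and 17331).

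Most regions that kept a mark in both diets also carried the other mark. Of the 15447 regions with H3K9me2 in both diets, 75.2% were dual-mark and 11.0% H3K9me2-specific. Of the 20980 with H3K9me3 in both diets, 55.3% were dual-mark and 13.6% H3K9me3-specific. The remainder had the other mark in 1 diet only (2143 and 6522 regions). Overlap with the other mark of the same diet was above that with the same mark of the other diet in 3 of the 4 lists. It was 53.3% against 37.5% of HFD H3K9me2 peaks, 71.1% against 65.8% of SCD H3K9me2 peaks and 45.8% against 43.1% of HFD H3K9me3 peaks. For SCD H3K9me3 peaks it was the lower one, at 66.8% against 84.1%. These shares also move with the length of the other list, and SCD H3K9me2 peaks overlapped the longest list, HFD H3K9me3, most (76.1%). Between scores within the 11610 dual-mark regions, Spearman's rho across marks of the same diet was 0.51 in HFD and 0.64 in SCD. Across diets of the same mark it was 0.40 for H3K9me2 and 0.69 for H3K9me3. For lists that shared neither, it was 0.53 (SCD H3K9me2 with HFD H3K9me3) and 0.24 (HFD H3K9me2 with SCD H3K9me3). These are descriptions over regions that share their libraries.

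The lists hold no peak below the lowest score, so a mark counted as missing could lie just under it, which was not tested. The scores just inside and just outside the rule were as follows. Among H3K9me2-specific regions, the weaker of the 2 peaks scored below 55 in 500 of 1694 (29.5%), against 459 of 2848 H3K9me3-specific (16.1%) and, for the weakest of 4 peaks, 1293 of 11610 dual-mark regions (11.1%). Just outside the rule, the single peak that kept a region out of the H3K9me2-specific class scored below 55 in 135 of 2143 regions (6.30%, median score of all 2143, 101.8). The single peak that kept a region out of the H3K9me3-specific class did so in 651 of 6522 (9.98%, median 81.7). By the class's own peaks, the H3K9me2-specific regions were thus nearest to the lowest score, and by the peaks that kept regions out, the H3K9me3-specific class was. With a score of at least 80 in every list there were 532 H3K9me2-specific, 4117 H3K9me3-specific and 5948 dual-mark regions.

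H3K9me2-specific regions lay mostly away from promoters, whereas most H3K9me3-specific regions lay at one. Promoters reached from 3 kb before to 3 kb after each annotated start of a protein-coding gene. Of H3K9me2-specific regions, 231 of 1694 overlapped a promoter (13.6%, interval 12.0 to 15.4%), against 1482 of 2848 H3K9me3-specific (52.0%, 50.2 to 53.9%), 5796 of 11610 dual-mark (49.9%, 49.0 to 50.8%) and 26.9% of all 74877 regions. The difference of H3K9me2-specific minus H3K9me3-specific was -38.4 percentage points (-40.9 to -35.9). It kept its sign in each diet alone but not its size. With regions defined by 1 diet, it was -3.14 points in the HFD lists (19.8% of 19801 regions against 22.9% of 27269). In the SCD lists it was -21.3 points (17.5% of 6836 against 38.8% of 8354). Over all peaks of each list the marks differed less. In HFD, 32.2% of H3K9me2 and 31.9% of H3K9me3 peaks lay at a promoter, and in SCD 41.4% and 47.0%. The large difference thus describes the mark-specific regions, not the marks over all their peaks.

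Introns and coding exons took up more of the H3K9me2-specific class. Introns held 24.7% of H3K9me2-specific, 9.38% of H3K9me3-specific, 10.5% of dual-mark and 18.4% of all regions, and coding exons held 7.91%, 1.86%, 3.03% and 6.27%. Between genes lay 49.9% of H3K9me2-specific, 34.6% of H3K9me3-specific, 32.8% of dual-mark and 44.5% of all regions. The 3' UTR shares were 3.01%, 1.90%, 2.96% and 3.21%. A region was placed once, by the first of promoter, 5' UTR, 3' UTR, coding exon and intron that it touched.

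**Figure D2:**
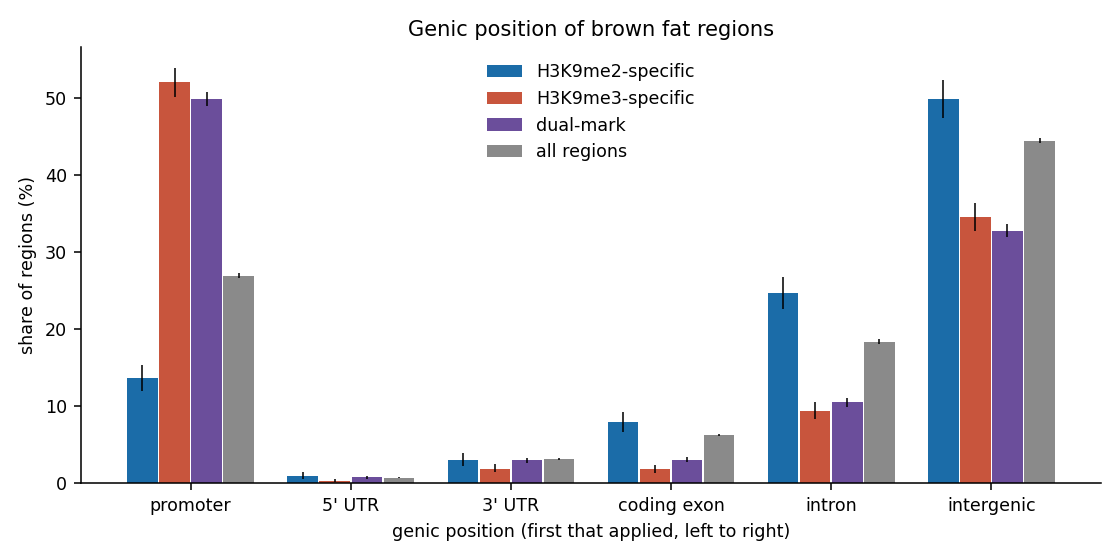
Share of regions (%) in each genic position for H3K9me2-specific, H3K9me3-specific, dual-mark and all brown fat regions, with error bars for the 95% exact binomial interval. The promoter bar is 13.6% for H3K9me2-specific against 52.0% for H3K9me3-specific and 49.9% for dual-mark regions, and the intron and coding exon bars run the other way.

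Even at promoters the classes were placed differently. Of the promoter regions, 44.2% (37.7 to 50.8%) of the H3K9me2-specific covered a start site, against 86.0% (84.1 to 87.7%) of the H3K9me3-specific, 87.4% of the dual-mark and 66.8% of all. The centre of a promoter region lay a median of 957 bp from the nearest start site in the H3K9me2-specific class, against 129 bp in the H3K9me3-specific and 199 bp in the dual-mark class. Most H3K9me3-specific and dual-mark promoter regions thus lay over a start site, and fewer than 1 in 2 of the H3K9me2-specific ones did. A mark-specific region can lie at a promoter that has other peaks as well. Of 242 genes with an H3K9me2-specific region at a promoter, 104 were dual-mark by all their promoter peaks and 102 H3K9me2-specific. Of 1683 genes with an H3K9me3-specific region there, 311 were dual-mark and 991 H3K9me3-specific.

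H3K9me2-specific regions were slightly wider than H3K9me3-specific ones, and dual-mark regions were the widest of the classes. The median width was 952 bp (933 to 970) for H3K9me2-specific, 829 bp (820 to 839) for H3K9me3-specific, 1287 bp for dual-mark and 858 bp for all regions. A width of at least 2 kb was reached by 3.84%, 0.597%, 13.7% and 3.75%. A dual-mark region is merged from 4 peaks and a mark-specific one from 2, and the mean width of the single peaks gave the same order, with medians of 869.5, 731 and 1088.4 bp. The H3K9me2-specific minus H3K9me3-specific difference in median width was 123 bp (101.5 to 143.1), 230 bp in the HFD lists alone and 10 bp in the SCD lists alone.

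Mark-specific peaks scored lower than dual-mark peaks of the same list. H3K9me2-specific regions had a median H3K9me2 score of 79.4 in HFD and 66.0 in SCD, against 98.3 and 122.1 for the H3K9me2 peaks of dual-mark regions. H3K9me3-specific regions had a median H3K9me3 score of 106.7 in HFD and 86.8 in SCD, against 315.7 and 252.9 in dual-mark regions. Within the H3K9me3-specific class, promoter regions scored higher (137.1 in HFD and 101.4 in SCD) than the others (83.8 and 74.4), while in the H3K9me2-specific class the medians were close (84.8 and 64.7 at promoters, 78.4 and 66.5 elsewhere).

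The mark-specific classes also differed in CpG content. CpG observed over expected, the count of CpGs divided by the count that the C and G content would give, had a median of 0.197 in H3K9me2-specific regions, against 0.628 in H3K9me3-specific, 0.573 in dual-mark and 0.299 in all regions. Over all peaks of each list, the medians were closer, at 0.33 for H3K9me2 and 0.39 for H3K9me3 in HFD. In SCD they were 0.52 and 0.59. The vertebrate genome is depleted of CpG because methylated cytosine mutates, and CpG islands, which cover the starts of most housekeeping genes, escape this. A GC content above 50% with a CpG ratio above 0.6, the usual definition of an island apart from its length, was met by 1.12% (0.677 to 1.75%) of H3K9me2-specific, 53.9% (52.0 to 55.7%) of H3K9me3-specific, 44.4% of dual-mark and 17.4% of all regions.

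The difference in CpG content was not only one of position. At promoters, 3.03% of 231 H3K9me2-specific regions met the island criteria, against 82.5% of 1482 H3K9me3-specific and 74.0% of 5796 dual-mark regions. Away from promoters, the shares were 0.820%, 22.8% and 15.0%. The motif GGGCGG, searched on both strands in the central 500 bp, was present in 13.8% of H3K9me2-specific, 63.8% of H3K9me3-specific, 61.5% of dual-mark and 29.6% of all regions. Median GC content was 53.5% in H3K9me2-specific, 59.5% in H3K9me3-specific, 59.4% in dual-mark and 54.8% in all regions. The GC difference of -6.00 points between the mark-specific classes turned round in the HFD lists alone, to 9.39 points (54.4% against 45.0%), and was -3.23 points in the SCD lists alone.

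Away from promoters, H3K9me3-specific and dual-mark regions were mostly repeated sequence, and H3K9me2-specific regions mostly were not. The 30 bases at the centre of each region were counted in the whole of mm9 on both strands. At least 10 exact copies were found for 10.9% (9.39 to 12.7%) of H3K9me2-specific, 52.3% of H3K9me3-specific, 57.8% of dual-mark and 43.4% of all regions away from promoters. At least 100 copies were found for 3.35%, 43.4%, 48.1% and 36.8%. At promoters the shares with at least 10 copies were low, at 6.49%, 1.69%, 1.79% and 2.92%. The methods state that reads mapping to multiple sites were removed, and the read length is not given in the sources used here, so how far such sequence could be mapped was not tested.

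The 30 bases most often shared among the regions of a class away from promoters are given with the CpGs in capitals and with the strand of mm9 they were read from. They were picked from the class they describe, so their shares there are a description only. H3K9me3-specific repeat 1, at chr12:36926156-36926185 on the plus strand, has 3502 exact copies in the genome, H3K9me3-specific repeat 2, at chr7:66464962-66464991 on the minus strand, has 1399, and dual-mark repeat 1, at chr9:80850795-80850824 on the minus strand, has 5730. The H3K9me2-specific repeat 1, at chr4:13109204-13109233 on the minus strand, has 856 copies. No repeat annotation was used, so they are not assigned to a family.
H3K9me2-specific repeat 1: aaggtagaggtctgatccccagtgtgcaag
H3K9me3-specific repeat 1: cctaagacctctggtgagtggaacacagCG
H3K9me3-specific repeat 2: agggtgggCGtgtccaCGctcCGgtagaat
dual-mark repeat 1: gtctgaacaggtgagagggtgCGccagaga

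H3K9me3-specific repeat 1 lay in 0.273% of H3K9me2-specific, 8.57% of H3K9me3-specific, 9.29% of dual-mark and 2.51% of all regions away from promoters. Repeat 2 of that class lay in 0.0684%, 8.35%, 2.17% and 1.80%. Dual-mark repeat 1 lay in 0 of 1463 H3K9me2-specific regions, in 3.81% of H3K9me3-specific and in 21.3% of dual-mark regions, against 3.07% of all. Each of these H3K9me3 and dual-mark sequences holds CpGs, whereas the H3K9me2-specific repeat 1 holds none and lay in 1.37% of its class, in 0 of 1366 H3K9me3-specific regions, in 0 of 5814 dual-mark regions and in 0.737% of all.

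Another kind of repeat stood out in the H3K9me2-specific class. A tandem repeat, a unit copied head to tail as in a minisatellite, was called when at least 80% of the bases in the central 240 equalled the base 1 period further on, for any period of 7 to 80 bp. It was present in 16.2% (274 of 1694, 14.5 to 18.0%) of H3K9me2-specific, 2.18% (62 of 2848, 1.67 to 2.78%) of H3K9me3-specific, 4.68% of dual-mark and 4.01% of all regions. The share was 32.3% (27.3 to 37.5%) among the 338 H3K9me2-specific regions with both scores at 80 or more, against 0.969% of 1239 such H3K9me3-specific and 6.04% of 5947 such dual-mark regions. Among regions with a CpG ratio below 0.3, however, dual-mark regions had the highest share, with 19.98% of 1261 H3K9me2-specific, 13.1% of 367 H3K9me3-specific, 38.2% of 1077 dual-mark and 6.76% of all 37524 regions. This search was added after the sequences had been seen. Very short units of 1 to 6 bases at the centre of regions away from promoters were rare, in 0.342%, 2.64%, 1.86% and 1.30%.

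The repeat printed above from the Vps13b intron had its best period at 52 bp, with 89.9% of bases equal. Its region, chr15:35837880-35839718, scored 553.9 in HFD and 281.9 in SCD for H3K9me2. The dual-mark repeat had a period of 8 bp with 88.4% of bases equal, and its region, chr3:157103734-157105751, scored 1740.5 (HFD) and 2070.5 (SCD) for H3K9me2 and 3100 in both diets for H3K9me3. The Spic stretch was below the limit, with 76.7% of bases equal at a period of 17 bp.

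**Figure D3:**
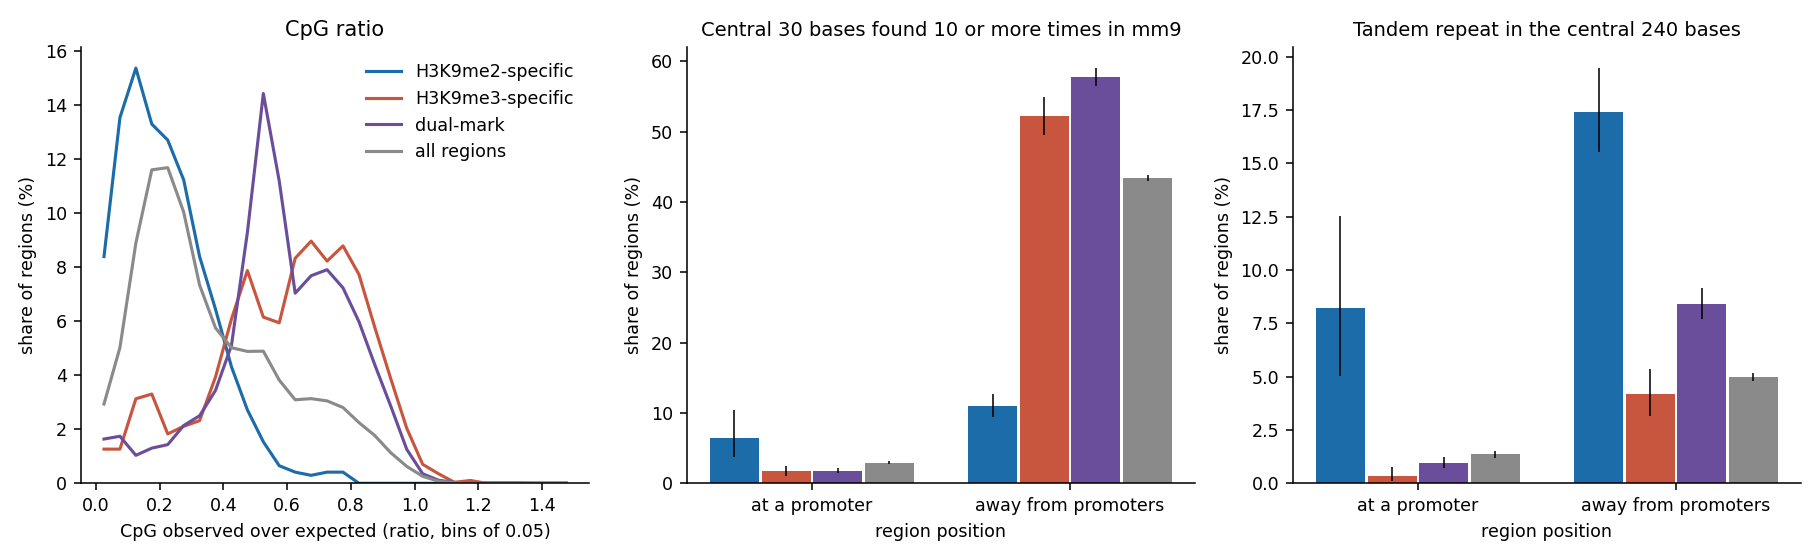
Left, share of regions (%) by CpG observed over expected in bins of 0.05; middle, share of regions (%) whose central 30 bases occur at least 10 times in mm9; right, share of regions (%) with a tandem repeat in the central 240 bases, both by position, with 95% exact binomial intervals. H3K9me2-specific regions have the lowest median CpG ratio (0.197), the lowest share of multi-copy centres away from promoters (10.9%) and the highest share of tandem repeats (17.4% away from promoters).

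Away from promoters, 4 of the 5 strongest H3K9me2-specific regions had a CpG ratio of at most 0.06, and the third, the repeat in the Vps13b intron, had one of 0.25. The highest, chr2:124884170-124887558 between genes near Slc24a5, scored 1396.4 in HFD and 333.1 in SCD and had a CpG ratio of 0.04. The next, chr1:173520193-173521916 in the 3' UTR of Ly9, a receptor of lymphocytes, scored 572.8 and 297.2 with a ratio of 0.03. The widest, chr3:3020705-3033643, spanned 12939 bp at the beginning of the sequenced part of chromosome 3 and scored 1038.0 and 188.8. In each of these regions the HFD score was the higher one.

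The 5 strongest H3K9me3-specific regions away from promoters lay between genes. The highest, chr8:19891600-19893357, scored 523 in HFD and 901.7 in SCD with a CpG ratio of 0.67 and overlapped several non-coding transcripts. The widest, chr6:47602716-47619426, spanned 16711 bp and scored 803.2 and 304.1. Of the dual-mark regions, the 3 widest (17695, 17097 and 12716 bp) lay next to each other on chromosome 8 over annotated 5S ribosomal RNA genes, a tandem array, within an intron of Gm20388.

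At the level of genes, H3K9me2-specific promoters were rare. Judged by the peaks themselves, of 21418 autosomal protein-coding genes 136 (0.635%) had a promoter peak of H3K9me2 in both diets and none of H3K9me3, 1005 (4.69%) had the H3K9me3-specific pattern and 6621 (30.9%) were dual-mark. A further 6689 genes (31.2%) were mixed and 6967 (32.5%) had no promoter peak. The counts moved with the lowest score, to 47 H3K9me2-specific and 2391 H3K9me3-specific genes when every peak had to score 80 or more, and with the diet, to 1053 and 3849 genes in the HFD lists alone and 647 and 2592 in the SCD lists alone. In each of these alternatives the H3K9me3-specific genes outnumbered the H3K9me2-specific. Taking 1 start site per gene gave 114 and 1151 genes.

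Among the 10 highest-scoring H3K9me2-specific genes were several of immune cells and sensory receptors, and many of the peaks lay at an annotated start inside the gene. Spic, a transcription factor of red pulp macrophages, scored 194.1 in HFD and 233 in SCD, with its region centred 639 bp inside the gene. Inpp5d (the phosphatase SHIP1 of blood cells) scored 115.9 and 139.6, and Il34, a ligand of the macrophage receptor Csf1r, scored 128.5 and 106.5, but these regions were centred 89613 and 60537 bp past the 5' end of the gene. The remaining genes of the 10 were Slc4a5, a bicarbonate transporter (674.9 and 111.9), the olfactory receptor Olfr571 (106 and 106.2), Vwf (135.2 and 89.3), Sp110 (109.5 and 89.2), Trim42 (88.0 and 118.7), the taste receptor subunit Tas1r3 (132.3 and 85.9) and the neuropeptide precursor Pnoc (101.2 and 85.6). The CpG ratio of these 10 regions was 0.09 to 0.42.

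Further blood cell genes had this pattern further down the list. Cd163, the haemoglobin scavenger receptor of macrophages, had H3K9me2 scores of 93.0 in HFD and 78.9 in SCD at a region upstream of the gene (centre at -1240 bp from its start). Rac2, a GTPase of blood cells, scored 83.9 and 53.8 over its start, and Lck, the T cell kinase, 55.9 and 71.7 in an intron. Itgad, an integrin of macrophages, scored 54.7 and 53.7, just above the lowest score. These genes were picked by what they do after the list was seen, and no test of such a theme was made. In the fixed lists, 1 of 13 macrophage markers (Cd163) and 0 of 8 T and B cell markers were H3K9me2-specific. Of olfactory receptors, 0.633% were, against 0.635% of all genes.

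The 10 highest-scoring H3K9me3-specific genes had their peak on the start site and a CpG ratio of 0.78 to 1.06. Phf3, a transcription regulator, scored 630.4 in HFD and 358 in SCD, with the region centred 137 bp from the start. Snx3, a sorting nexin, scored 599.2 and 283.2, Bcl10, an adaptor that activates NF-kB, 408.3 and 305.6, and Srebf2, the activator of cholesterol synthesis genes, 387.2 and 282.5. The others were Tcf12 (395.7 and 343.9), Megf11 (384.4 and 349.2), Pom121 (369.3 and 357.9), Akap10 (295.1 and 293.4), Zfp568 (290.7 and 311.9) and Armc8 (280.6 and 288). Their peaks were centred at most 372 bp from the nearest annotated start.

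A few genes of lipid metabolism had an H3K9me3-specific promoter. There was 1 among 36 brown adipocyte genes (2.78%), 1 among 29 white adipocyte genes (3.45%) and 1 among 20 lipogenesis genes (5%, Srebf2), near or below the 4.69% of all genes. Pparg, the master regulator of fat cell differentiation, was the one of the white adipocyte list and scored 155.9 in HFD and 162.1 in SCD for H3K9me3. Esrra, a nuclear receptor that drives mitochondrial genes, was the one of the brown adipocyte list and scored 259.7 and 172.1. Of 22 genes of lipolysis and fatty acid oxidation, 3 were H3K9me3-specific (13.6%), with Cpt2 at 118.7 and 112, Acadm at 97.6 and 108.9 and Cpt1b, whose promoter also belongs to Chkb, at 103.7 and 59. These enzymes carry fatty acids into mitochondria (Cpt1b, Cpt2) and start the oxidation of those of medium length (Acadm). No gene was H3K9me2-specific in the lists of brown adipocyte (36 genes), white adipocyte (29), lipogenesis (20), fatty acid oxidation (22) and insulin signaling genes (28). At the 0.635% of all genes, lists of this size would mostly hold none, so nothing is read from these counts.

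Of the brown adipocyte list, 16 of 36 genes were dual-mark (44.4% against 30.9% of all genes). The housekeeping list had the same share (8 of 18, 44.4%), so it was not particular to brown adipocyte genes. Prdm16 scored 118.4 in HFD and 90 in SCD for H3K9me2 and 848.3 and 418.3 for H3K9me3. Ucp1, the uncoupling protein that makes heat, had weak peaks over its start (54.6 and 57.8 for H3K9me2, 129.4 in HFD and none in SCD for H3K9me3) and was mixed, as was Cidea. No promoter peak was listed at Ppargc1a and Dio2. Peak lists hold no expression, so the labelled tissue could not be checked by its transcripts.

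Insulin and MAPK signaling genes had dual-mark shares above the 30.9% of all genes. So did lists unrelated to signaling, with 44.4% of 18 housekeeping and 51.35% of 37 germline genes. Of 28 insulin signaling genes, 16 were dual-mark (57.1%), among them Irs2, an insulin receptor substrate, with H3K9me2 scores of 548 in HFD and 385.8 in SCD and H3K9me3 scores of 2399.1 and 1593.1. Of 45 MAPK genes, 23 were dual-mark (51.1%) and 2 H3K9me3-specific (4.44% against 4.69% of all genes), with Ddit3 among them at 117.5 and 104.3. Genes are counted by gene ID here, and Fgfr1 in this list, Jmjd1c and Atf7ip among the H3K9 methylation genes, Hoxa3 among the Hox genes and Ndufb8 in oxidative phosphorylation have 2 IDs each. Of the genes on which the study concentrated, Map3k5 (143.6 and 191.6 for H3K9me2, 723.9 and 650.6 for H3K9me3), Hspa1a, Vegfa and Dusp2 were dual-mark, and Map3k14, Met and Ppp3cc were mixed. In the TNF and NF-kB list of 30 genes, 11 were dual-mark (36.7%, nearer to that of all genes) and 2 H3K9me3-specific (6.67%, Relb at 166.3 and 134.6, and Birc2 at 173.6 and 115).

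Of 25 genes of H3K9 methylation itself, 9 were dual-mark (36%, near the 30.9% of all genes), including Ehmt2 (294.9 and 294.4 for H3K9me2, 700.4 and 452.8 for H3K9me3) and Trim28, and 2 were H3K9me3-specific (8% against 4.69%). The H3K9me3-specific pair was Kdm3a, an H3K9 demethylase needed for normal brown fat function in mice, at 231.5 and 155.4, and the HP1 gene Cbx1 at 201.4 and 91.9.

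The classes also differed between gene families. Keratins and keratin-associated proteins, which build hair and epidermis, had 6 of 97 genes H3K9me2-specific (6.19% against 0.635% of all genes), for example Krtap29-1 (123.9 and 75.2), and 1 H3K9me3-specific. Olfactory receptors had 7 of 1106 H3K9me2-specific (0.633%), 2 H3K9me3-specific and 13 dual-mark, and 90.3% had no promoter peak. Ribosomal proteins (12 of 136, 8.82%), oxidative phosphorylation (8 of 89, 8.99%), Hox (4 of 40, 10%) and histone genes (7 of 67, 10.4%) had H3K9me3-specific shares above the 4.69% of all genes. Their dual-mark shares were below the 30.9% of all genes in ribosomal proteins (16.2%) and oxidative phosphorylation (23.6%). In Hox (40%) and histone genes (44.8%) they were above it. Dual-mark shares were above the 30.9% of all genes in clustered protocadherins (21 of 24, 87.5%), forkhead factors (32 of 40, 80%) and imprinted genes (33 of 48, 68.8%). Genes of a family can share a peak, and multi-copy families can share reads, so their members are not independent.

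**Figure D4:**
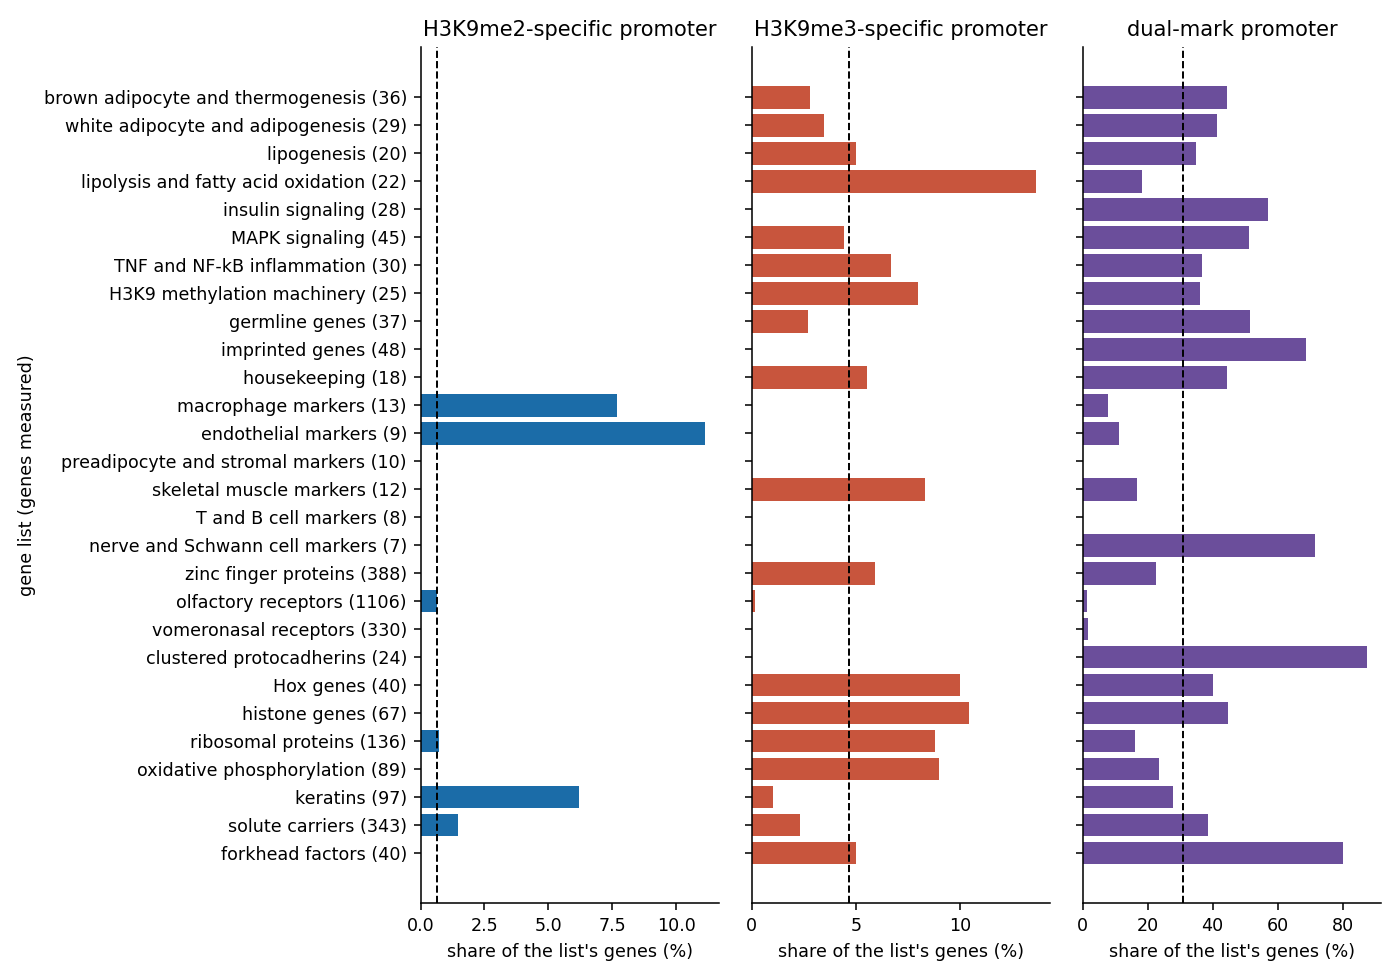
Share of the autosomal genes of each list or family (%, number of genes in brackets) with an H3K9me2-specific, H3K9me3-specific or dual-mark promoter, and, as a dashed line, the share over all 21418 genes (0.635, 4.69 and 30.9%). Keratins lie right of the line for H3K9me2 (6.19%) and protocadherins, forkhead factors and imprinted genes for dual-mark promoters (87.5, 80 and 68.8%).

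Markers of other cells in the tissue showed no common class. Over all genes, the shares were 0.635% H3K9me2-specific, 4.69% H3K9me3-specific and 30.9% dual-mark. These lists hold 7 to 13 genes, so 1 gene moves a share by several points. No difference from all genes is therefore read from the counts. Macrophage markers had 1 of 13 genes H3K9me2-specific (Cd163) and 1 dual-mark, endothelial markers 1 of 9 H3K9me2-specific (Vwf) and 1 dual-mark, and skeletal muscle markers 1 of 12 H3K9me3-specific (Pax7, at 279.2 and 185.3) and 2 dual-mark. Preadipocyte markers (10 genes) and T and B cell markers (8 genes) had none in the 3 classes, and 5 of 7 nerve markers were dual-mark (71.4%). In bulk tissue, a peak present in few cells and a weak peak in all cells cannot be told apart.

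The regions of each class were also counted in windows of 1 Mb, where the counts move with the size of the class. At most 7 of the 1694 H3K9me2-specific regions fell together, for example at chr15:74000001-75000000. The highest count of the 2848 H3K9me3-specific regions was 13, at chr7:20000001-21000000, with the promoters of Relb, Bcl3 and Tomm40 among them. Dual-mark regions reached 49 in a window of chromosome 18 that holds the clustered protocadherins. The gap from an H3K9me2-specific region to the nearest H3K9me3 peak had a median of 15813.5 bp, and that from an H3K9me3-specific region to the nearest H3K9me2 peak one of 12224 bp.

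The WAT lists took no part in choosing the regions and served as a separate read-out of the same marks, with peaks counted at a score of at least 50. In WAT, BAT H3K9me2-specific regions more often had an H3K9me3 than an H3K9me2 peak, and H3K9me3-specific regions more often an H3K9me2 peak. Of H3K9me2-specific BAT regions, 12.5% (11.0 to 14.2%) had a WAT H3K9me2 peak in either diet and 34.8% (32.5 to 37.1%) a WAT H3K9me3 peak. Of H3K9me3-specific regions, 55.6% (53.7 to 57.4%) had a WAT H3K9me2 peak and 35.1% (33.3 to 36.9%) a WAT H3K9me3 peak. Over all BAT regions the shares were 33.2% for WAT H3K9me2 and 30.5% for WAT H3K9me3, and in dual-mark regions 90.4% and 77.4%. In H3K9me2-specific regions, the WAT H3K9me3 share was thus near that of all regions and the WAT H3K9me2 share below it. A WAT H3K9me2 share above the WAT H3K9me3 share was found in dual-mark as well as H3K9me3-specific regions.

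The pattern was not carried by 1 list alone in H3K9me2-specific regions. There, WAT H3K9me2 peaks were found for 1.30% in HFD and 11.7% in SCD, against WAT H3K9me3 peaks for 23.8% in HFD and 16.6% in SCD. In H3K9me3-specific regions, WAT H3K9me2 peaks were found for 39.6% in HFD and 36.8% in SCD, and WAT H3K9me3 peaks for 33.0% in HFD but 4.35% in SCD. The SCD WAT H3K9me3 list held 7531 autosomal peaks at this score, the fewest of the WAT lists, against 27682 in HFD and 20790 (HFD) and 20904 (SCD) for H3K9me2. At promoters, 67.3% of H3K9me3-specific regions had a WAT H3K9me2 peak and 31.2% a WAT H3K9me3 peak, and elsewhere 42.8% and 39.2%. Most H3K9me2-specific regions (61.2%) had no WAT peak of any kind, against 32.4% of H3K9me3-specific, 4.81% of dual-mark and 56.1% of all regions.

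**Figure D5:**
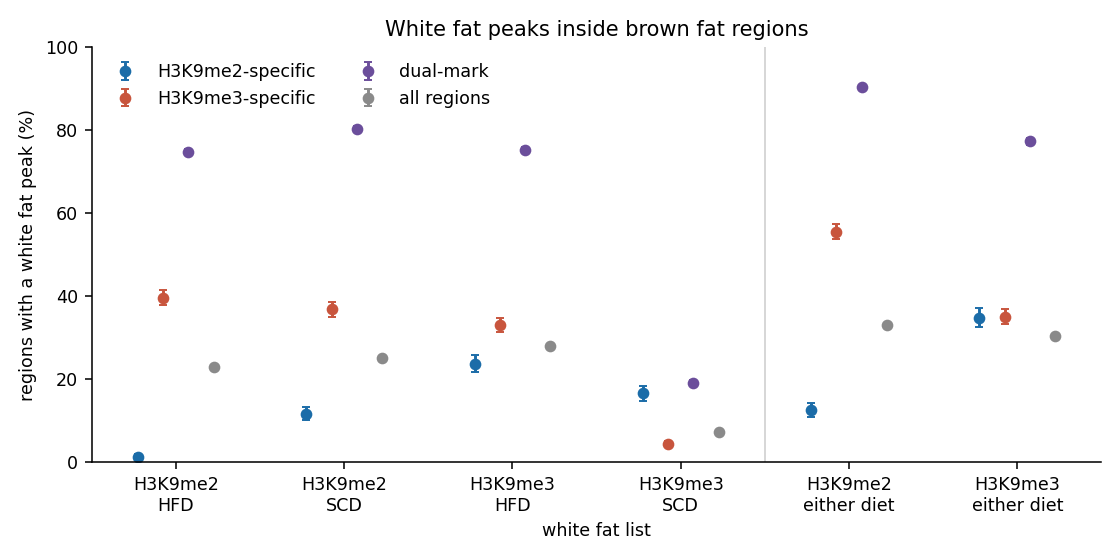
Share of brown fat regions (%) with a white fat peak of each mark and diet, and of each mark in either diet, with 95% exact binomial intervals. H3K9me2-specific regions lie lower for white fat H3K9me2 (12.5% in either diet) than for H3K9me3 (34.8%), H3K9me3-specific regions the other way (55.6 and 35.1%), and dual-mark regions lie highest (90.4 and 77.4%).

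The same rule applied to the WAT lists gave classes with the opposite position. Of 2733 regions with H3K9me2 and no H3K9me3 in WAT, 77.9% were at a promoter, against 10.1% of 714 with H3K9me3 and no H3K9me2 and 40.4% of 1894 dual-mark regions. Over all peaks of each WAT list, the promoter shares differed in the same direction. In HFD, 42.7% of WAT H3K9me2 and 31.35% of WAT H3K9me3 peaks lay at a promoter, and in SCD 47.3% and 21.4%. Of the BAT H3K9me2-specific regions, 2 (0.1181%) overlapped a WAT H3K9me2-specific region and 61 (3.601%) a WAT H3K9me3-specific region. Of the BAT H3K9me3-specific regions, 15 (0.5267%) overlapped a WAT H3K9me3-specific region and 299 (10.5%) a WAT H3K9me2-specific region. Over all BAT regions, 3.495% overlapped a WAT H3K9me2-specific region and 0.7145% a WAT H3K9me3-specific region. In dual-mark BAT regions these shares were 10.01% and 0.3359%. The overlap of H3K9me3-specific regions with WAT H3K9me2-specific ones was thus close to that of dual-mark regions. Such overlaps also move with the size of the WAT classes (2733 and 714 regions). Tissue and library cannot be told apart with 1 library per group. The antibody descriptions given at the start bear on which mark each list holds, and their part in this pattern was not tested.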

How the data were processed

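H3K9me2 and H3K9me3 ChIP-seq libraries of brown fat from HFD-fed and SCD-fed mice, 1 per mark and diet, were analysed from the peak lists that the authors deposited. According to the methods and the submitters' processing notes, the reads were checked with FastQC, trimmed with Trim Galore and aligned to mm9 with Bowtie2 2.4.2, reads mapping to several sites were removed, and peaks were called with MACS2. How the inputs entered the calling is not given in the sources used here. Each deposited list holds positions and a score of no stated unit. The lists give no read depth, so precision rests on numbers of peaks.

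Groups came from the library titles. Peaks scoring at least 50 on autosomes were merged at 1 bp of overlap. Genes and 67194 start sites came from GENCODE vM1 on NCBIM37, whose chromosomes hold every peak on placed chromosomes. Shares have exact (Clopper-Pearson) 95% intervals and medians order-statistic intervals. Alternatives were a lowest score of 80, lists of equal length, each diet alone, other merging, promoter and overlap rules, and other WAT thresholds. Further ones were regions of 500 to 1500 bp and the addition of X. The classes, gene lists and families were chosen with earlier results of these data known. Genes were named as the 10 highest of each class by their lowest score, up to 3 members of each class per list, the study's MAPK genes and brown fat markers, and regions as the 5 highest and 5 widest, and a part of these is printed. Others were picked after their values were seen. Some genes are not reported here. Genes on X and symbols without a match were left out of the lists. The 36 brown adipocyte genes include Galk1, where Gk was planned. The 48 imprinted genes include Nckap1, where H19 was planned. Both Galk1 and Nckap1 were mixed, so they entered only the totals of these lists.

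Python 3.11.15 with NumPy 2.4.6, SciPy 1.17.1, pysam 0.24.0 and matplotlib 3.10.9, samtools 1.23.1 and bedtools 2.31.1 were used. Merging, classes of regions, promoter shares, the copy count and the tandem repeat search were tested on simulated data, and the other steps were not. The 74877 regions were identical to those of bedtools.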

Additional observations from a re-analysis of the deposited data

Results flagged for a closer look

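The promoter share of regions with H3K9me2 alone minus that of regions with H3K9me3 alone had opposite signs in the tissues. It was -3.14 percentage points in HFD BAT (19.8% of 19801 regions against 22.9% of 27269) and -21.3 points in SCD BAT (17.5% of 6836 against 38.8% of 8354). It was 15.5 points in HFD WAT (35.4% of 9792 against 19.9% of 16922) and 40.0 points in SCD WAT (51.6% of 16831 against 11.7% of 3465). The difference between tissues was not tested, with 1 library per mark, diet and tissue.

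Chromosomes outside the 19 autosomes entered none of the main comparisons. With X added to the autosomes, the promoter share of H3K9me2-specific minus H3K9me3-specific regions was -37.4 points (13.7% against 51.1%), against -38.4 points without it. By the same rule, X held 12 H3K9me2-specific, 131 H3K9me3-specific and 231 dual-mark regions. The unplaced contigs of Y held 14 H3K9me2-specific, 13 H3K9me3-specific and 69 dual-mark regions. In the lists, X took 0.845% of HFD H3K9me2 peaks, against 3.71% of SCD H3K9me2, 3.33% of HFD H3K9me3 and 4.67% of SCD H3K9me3 peaks.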

How the results depend on the processing

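Of 44 differences recomputed under alternatives, 43 kept their sign and 1, the median GC difference, did not. With a score of at least 80, there were 532 H3K9me2-specific, 4117 H3K9me3-specific and 5948 dual-mark regions and 47 and 2391 mark-specific genes (H3K9me2 first), and the differences of H3K9me2-specific minus H3K9me3-specific regions were -53.3 points in promoter share, 160.5 bp in width and -8.63 points in GC. The WAT differences (H3K9me2 share minus H3K9me3 share) were then -25.2 points in H3K9me2-specific and 29.3 points in H3K9me3-specific regions. With 23626 peaks from each list, there were 1777 H3K9me2-specific, 1944 H3K9me3-specific and 8152 dual-mark regions. Promoter share, width and GC then differed by -51.2 points, 152 bp and -7.61 points, and the WAT difference of H3K9me3-specific regions was 31.8 points.

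The HFD lists alone gave 19801 H3K9me2-specific, 27269 H3K9me3-specific and 22334 dual-mark regions, 1053 and 3849 genes, a promoter difference of -3.14 points, a width difference of 230 bp, WAT differences of -13.1 and 13.8 points and a GC difference of 9.39 points, the reverse of the main value. The SCD lists alone gave 6836 and 8354 mark-specific regions, 647 and 2592 genes, differences of -21.3 points, 10 bp and -3.23 points in promoter share, width and GC, and WAT differences of -10.9 and 7.77 points. Merging within 1 kb gave -34.2 points, 97.5 bp and -5.41 points, and the bases shared by both diets 145 bp and -7.24 points. The WAT differences were -17.8 and 30.1 points with the WAT lists as deposited, -10.6 and 14.8 points at a WAT score of at least 80, and, for H3K9me2-specific regions, -5.14 points with peaks in both diets. The cause of these shifts was not tested.

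No paired analysis was possible because the labels give no replicate numbers that pair libraries and each group has 1 library. Of H3K9me2-specific regions, 29.5% have a score below 55 and so depend on the lowest score, and the depth of the libraries is unknown.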
